A study of Homo sapiens with 2 samples.

Results

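The nuclear genes for the respiratory chain and the ATP synthase were compared between 2 lines derived from MKN1, an established cell line of human gastric cancer. Members were chosen by gene symbol: subunits and named assembly factors of complex I (NDUF genes), complex II (SDH genes), complex III (CYC1 and UQCR genes) and complex IV (COX genes with a number), and all ATP5 genes. This gave 95 genes, each with 1 probe set, of 17687 named genes on 21448 probe sets, and no gene of the mitochondrial genome was among them. RHOA, a small GTPase that controls the actin cytoskeleton, was overexpressed from the retroviral vector pBABE-puro, as the wild-type form in the first line and as Y42C, a tyrosine-to-cysteine form, in the second. Both lines were selected with puromycin and grown at the same temperature in RPMI with fetal bovine serum, and neither parental nor empty-vector cells were analysed here. Each line was measured on 1 Affymetrix array of total RNA, so no difference below has a replicate check, a standard error or a p-value. The values compare these 2 lines and not the alleles in general, and the sources used here do not state whether either line is a clone.

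The respiratory chain passes electrons from NADH and succinate to oxygen and pumps protons across the inner mitochondrial membrane, and the ATP synthase lets them flow back to make ATP. Complex I takes electrons from NADH and complex II from succinate. Both hand them to ubiquinone, complex III passes them to cytochrome c, and complex IV reduces oxygen. Most subunits are encoded in the nucleus and a few in mitochondrial DNA. NRF1 and the ETS factor GABPA are known activators of many nuclear subunit genes, and PGC-1 coactivators (the PPARGC1 genes) work with them.

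Values are deposited array signals on a scale taken as log2, and a difference is Y42C minus wild-type. The wild-type array had a median of 6.42 and the Y42C array one of 6.36, and RHOA itself read 16.47 and 16.30, which does not check the labels because both lines carry a RHOA vector. A gene was counted as above the minimum when at least 1 array reached the level below which 95% of olfactory receptor genes lay there (5.17 on the wild-type array, 5.14 on the Y42C array). Of the epithelial markers 4 of 5 were above it (EPCAM, KRT8, KRT18 and KRT19), while CDH1, the epithelial cadherin, was below it on both arrays (3.92 and 3.86). Of 9 gastric markers only CLDN18 was above it (5.48 and 6.05). Leukocyte markers ranged from 3.55 to 7.45 on the wild-type and from 3.82 to 5.67 on the Y42C array, with 3 of 4 above the minimum: CD14 read 7.45 and 5.67 (3.43-fold lower), CD3E 4.70 and 5.67, and PTPRC 4.61 and 5.39. Of the endothelial markers 2 of 3 were above it (PECAM1 and VWF). Of the muscle markers 3 of 4 were: ACTA1 read 11.72 and 11.89, MYH7 5.65 and 6.03, and MB, myoglobin, 6.01 and 7.20 (2.28-fold higher). The part of any of these in the results was not tested. In RNA from a whole culture, fewer cells of a type and less RNA per cell cannot be told apart.

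Of the 95 members, 91 were above the minimum, 88 of them on both arrays. The other 4 were NDUFS7, COX4I2, COX7A1 and the non-coding divergent transcript NDUFV1-DT, for which no fold is given. The Y42C array read lower for 63 of the 91 (69.2%, against 54.2% of all 11802 genes above the minimum), higher for 27 (29.7%, against 45.2%) and equal for 1. The median difference of the members was -0.32, with quartiles of -0.68 and 0.08, against a median of -0.07 over all genes. At least 2-fold lower were 12 members (13.2%, against 9.80% of all genes), a share near that of all genes. At least 2-fold higher was 1 member (1.10%, against 7.46% of all genes). At 1.5-fold the counts were 24 lower (26.4%, against 23.4%) and 5 higher (5.49%, against 17.8%). At both thresholds the lower share was close to that of all genes and the higher share was below it.

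Most members gave bright signal, so they were also set beside the 6185 genes in the range of mean signal that held the middle 80% of the members, 8.44 to 14.54. Of those genes 9.94% were at least 2-fold lower, 8.04% at least 2-fold higher and 55.1% lower by any amount, with a median of -0.09. The SD of the differences was 0.597 across members and 0.782 across genes in that range, which describes the spread across genes and is no measure of error.

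**Figure D1:**
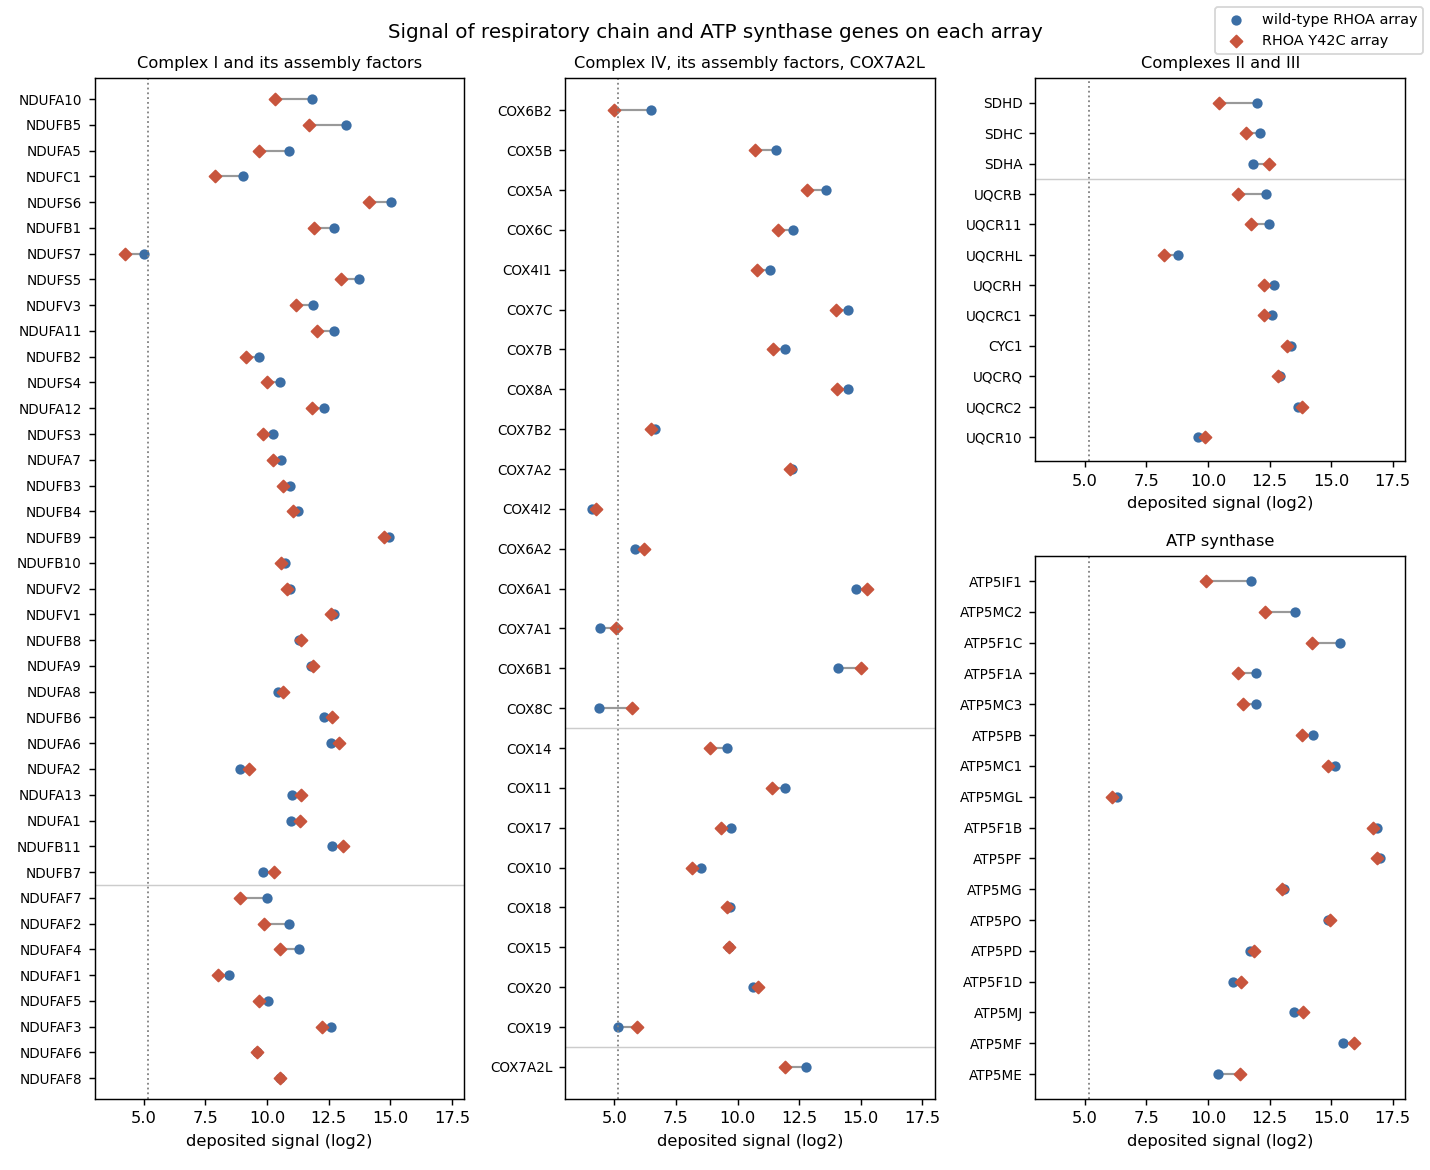
Deposited signal (log2, horizontal axis) of each member on the wild-type RHOA array (circles) and the RHOA Y42C array (diamonds), grouped by complex and ordered by difference within each group; the dotted line marks the minimum for the wild-type array, 5.17. ATP5IF1 (11.75 and 9.94), SDHD (11.99 and 10.45) and NDUFA10 (11.84 and 10.33) have the longest lines to the left among genes well above the minimum.

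The largest difference of any member was that of ATP5IF1, the small protein that blocks the ATP synthase from running backwards and hydrolysing ATP. It read 11.75 on the wild-type and 9.94 on the Y42C array, 3.51-fold lower. It was the only member past 3-fold. The next was SDHD, which together with SDHC anchors complex II in the membrane. SDHD read 11.99 and 10.45 and was 2.91-fold lower. Both genes were far above the minimum on both arrays, so neither difference rests on a dim probe set.

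NRF1 and ETS matches were searched in the promoters of the members because those factors are tied to these genes as a class. Promoters are 250 bases before to 50 after each annotated start in RefSeq (GRCh38.p14). All motifs were searched on both strands. The table held 98 such windows for 77 of the 95 members. The full NRF1 motif, GC followed by GCATGCGC, was in 8 of the 98 windows (8.16%, against 1.24% of all 35116 windows in the table and 1.83% of the windows of other genes above the minimum). The GCATGCGC part alone was in 19.4% (3.05% of all windows and 4.45% of those of the other genes). The ETS motif CCGGAAG was in 27.6% (10.3% and 16.2%), and the YY1 motif AAGATGGC in 14.3% (2.89% and 4.45%). The SP1 motif GGGCGG was in 60.2% (45.0% and 64.9%) and CCAAT in 35.7% (34.6% and 34.6%). A window with the full NRF1 motif is also counted for the shorter one, and several starts of 1 gene share bases.

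The sequences below are the 120 bases just before an annotated start of each of 6 members. They run 5′ to 3′ on the gene's strand, with NRF1 (GCATGCGC or longer) and ETS matches in capitals. SDHD, ATP5F1C and ATP5MC2 are shown because they were at least 2-fold lower. COX17 is shown because it holds the full NRF1 motif and was lower by less than 2-fold (-0.42). ATP5ME and COX6B1 are shown because they were among the highest members. All 6 were also chosen for holding a match. ATP5MC2 and COX17 have other annotated starts, not shown, including for each gene a start with no match in its 120 bases. All come from the RefSeq table on GRCh38.p14.
SDHD, chr11:112086753-112086872, plus strand, difference -1.54: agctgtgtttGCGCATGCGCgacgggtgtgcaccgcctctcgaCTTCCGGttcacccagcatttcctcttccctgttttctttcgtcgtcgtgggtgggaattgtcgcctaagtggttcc
ATP5F1C, chr10:7788057-7788176, plus strand, difference -1.14: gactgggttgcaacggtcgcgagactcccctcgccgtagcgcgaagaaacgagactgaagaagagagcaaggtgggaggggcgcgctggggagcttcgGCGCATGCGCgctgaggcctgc
ATP5MC2, chr12:53676331-53676450, minus strand, difference -1.20: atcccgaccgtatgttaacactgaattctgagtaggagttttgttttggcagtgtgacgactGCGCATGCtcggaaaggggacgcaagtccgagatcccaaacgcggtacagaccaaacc
COX17, chr3:119677407-119677526, minus strand, difference -0.42: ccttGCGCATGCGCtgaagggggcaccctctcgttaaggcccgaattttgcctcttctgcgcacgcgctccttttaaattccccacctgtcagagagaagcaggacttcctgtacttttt
ATP5ME, chr4:674277-674396, minus strand, difference 0.89: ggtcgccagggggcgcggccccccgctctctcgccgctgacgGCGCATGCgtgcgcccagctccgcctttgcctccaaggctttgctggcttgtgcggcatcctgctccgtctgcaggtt
COX6B1, chr19:35648203-35648322, plus strand, difference 0.91: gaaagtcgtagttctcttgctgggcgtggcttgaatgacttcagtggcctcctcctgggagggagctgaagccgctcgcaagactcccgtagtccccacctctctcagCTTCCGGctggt

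Of the 10 members at least 2-fold lower with a promoter window, 4 held GCATGCGC (SDHD, ATP5F1C, ATP5MC2 and NDUFA5) and 6 did not (ATP5IF1, NDUFA10, NDUFC1, NDUFAF2, NDUFAF7 and COX6B2). Of the same 10, 8 held the SP1 motif, 5 CCAAT, 2 the full NRF1 motif, 1 ETS and 0 YY1. Among all 75 members above the minimum with a window, 16 held GCATGCGC, 47 SP1, 30 CCAAT, 7 the full NRF1 motif, 24 ETS and 11 YY1. Over the 75 members above the minimum with a promoter window, the median difference was -0.395 for the 16 with GCATGCGC and -0.28 for the 59 without it. For ETS it was -0.11 for 24 with and -0.35 for 51 without. For SP1 it was -0.40 for 47 with and -0.11 for 28 without. The full NRF1 motif gave -0.37 for 7 with and -0.30 for 68 without. YY1 gave -0.15 for 11 with and -0.365 for 64 without, and CCAAT -0.365 for 30 with and -0.26 for 45 without. Genes with more annotated starts have more chances to hold a match, and a match describes letters in a window, not binding.

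Complex I, the largest of the complexes, had 30 of 31 subunits above the minimum. Of these 20 were lower and 10 higher in the Y42C array, 4 at least 2-fold lower and 0 at least 2-fold higher, with a median of -0.24. Those shares were 13.3% at least 2-fold lower (9.80% of all genes) and 66.7% lower by any amount (54.2% of all genes). Of all genes, 7.46% were at least 2-fold higher. The 4 were accessory subunits, which stabilise the complex without carrying electrons. NDUFA10, in the membrane arm, read 11.84 and 10.33 (2.85-fold lower). NDUFB5, also in the membrane arm, read 13.18 and 11.68 (2.83-fold lower). NDUFA5, in the peripheral arm that reaches into the matrix, read 10.89 and 9.69 (2.30-fold lower). NDUFC1, in the membrane arm, read 9.01 and 7.87 (2.20-fold lower). NDUFS6, an accessory subunit that binds zinc, followed at 15.04 and 14.13, a difference of -0.91.

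The 3 core subunits above the minimum were all lower in the Y42C array, by differences of -0.40 to -0.12, and none passed 2-fold. NDUFV1, the flavoprotein that accepts electrons from NADH, read 12.73 and 12.61. NDUFV2, an iron-sulfur subunit next to it, read 10.93 and 10.81. NDUFS3, a core subunit near the quinone site, read 10.23 and 9.83, a difference of -0.40. NDUFS7, an iron-sulfur subunit beside that site, was below the minimum on both arrays at 4.99 and 4.22. Between the arms the medians were -0.36 for 12 peripheral-arm and -0.21 for 18 membrane-arm subunits, and both arms had members on both sides of 0. The most positive subunit was NDUFB7, in the membrane arm, at 9.83 and 10.29 (0.46). NDUFB11 (0.42), NDUFA1 (0.37), NDUFA2 (0.35) and NDUFA13, also known as GRIM19 (0.35), were next, so the positive end of complex I stayed well short of 2-fold.

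The assembly factors of complex I were lower in 6 of 8 cases (75%, against 54.2% of all genes), with a median of -0.415. At least 2-fold lower were 2 of them (25%, against 9.80% of all genes). NDUFAF7, a mitochondrial methyltransferase, read 9.98 and 8.90 (2.11-fold lower). NDUFAF2, which attaches during late assembly, read 10.88 and 9.88, exactly at 2.0-fold. NDUFAF2 fell short of 2-fold under 4 alternatives (differences of -0.99 to -0.89) and NDUFAF7 under 1 (-0.96, with a trend on level removed). NDUFAF4 was next at 11.29 and 10.52 (-0.77). At the other end NDUFAF6 was equal at 9.57 on both arrays and NDUFAF8 differed by 0.02.

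**Figure D2:**
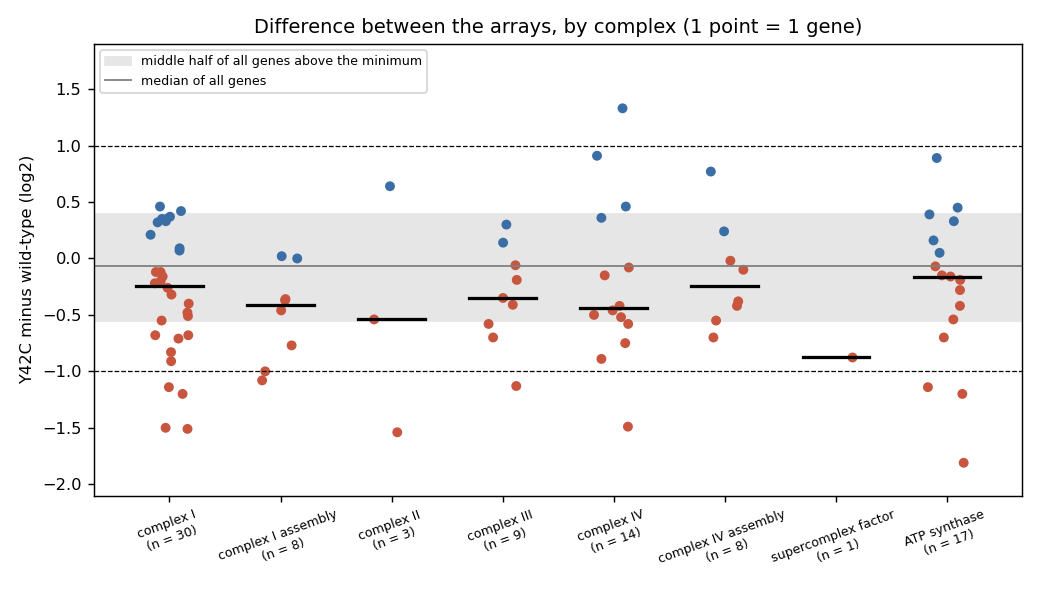
Difference between the arrays (log2, Y42C minus wild-type, vertical axis) for the 90 members above the minimum that belong to a complex, its assembly or supercomplexes, 1 point per gene, with negative values in red and other values in blue. Short black bars are medians, the grey band runs between the quartiles of all genes above the minimum (-0.55 and 0.39), and dashed lines mark 2-fold; 12 points lie on or below the lower line and 1 above the upper.

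The 3 genes of complex II analysed here went in both directions. SDHA, the flavoprotein that oxidises succinate, was higher in the Y42C array, at 11.84 and 12.48 (1.56-fold). SDHC, a membrane anchor, was lower at 12.10 and 11.56 (-0.54), and its partner SDHD was the gene with the second most negative difference of all members. The differences of the 3 genes thus spanned -1.54 to 0.64. SDHB, the iron-sulfur subunit, was not analysed here.

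Complex III had 7 of 9 members lower (77.8%, against 54.2% of all genes), with a median of -0.35. At least 2-fold lower was 1 of them (11.1%, against 9.80% of all genes). UQCRB, a small subunit at the quinone-binding region, read 12.37 and 11.24 (2.19-fold lower), and the small subunit UQCR11 12.46 and 11.76 (-0.70). CYC1, the cytochrome c1 that passes electrons on to cytochrome c, read 13.38 and 13.19. The core proteins UQCRC1 (-0.35) and UQCRC2 (0.14) lay on either side of 0. UQCR10, a small subunit, was the most positive at 9.60 and 9.90 (0.30). UQCRH, the acidic hinge protein, read 12.68 and 12.27, and its near-identical relative UQCRHL 8.78 and 8.20. These close copies may share probes, so they are not separate observations. Many genes of this class also have processed pseudogenes, and whether a probe set reads one was not tested.

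Complex IV, cytochrome c oxidase, had 10 of 14 subunits above the minimum lower in the Y42C array (71.4%, against 54.2% of all genes). Their median was -0.44. The mean was -0.20, and with no minimum the median was -0.29. At least 2-fold lower were 7.14% of them, against 9.80% of all genes. COX5B and COX5A, subunits present as single genes, were lower at 11.58 and 10.69 (-0.89) and at 13.58 and 12.83 (-0.75). COX6C (-0.58), COX7C (-0.50) and COX7B (-0.46) were lower by less. COX6B1, which faces the intermembrane space and bridges the dimer, went the other way at 14.08 and 14.99 (1.88-fold higher). COX6A1 was also higher, at 14.80 and 15.26 (1.38-fold).

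Several complex IV positions can be filled by a ubiquitous or a tissue-restricted isoform. For subunit 4 the ubiquitous COX4I1 read 11.33 and 10.81, and COX4I2, known from lung and hypoxia, was below the minimum on both arrays (4.11 and 4.27). For subunit 6A the ubiquitous COX6A1 differed by 0.46 and the heart and muscle form COX6A2, at 5.83 and 6.19, by 0.36. For subunit 6B the forms went in opposite directions: the ubiquitous COX6B1 differed by 0.91, while the testis form COX6B2 read 6.49 and 5.0. COX6B2 was at least 2.56-fold lower, a bound because its Y42C value was below the minimum. For subunit 7A the ubiquitous COX7A2 was close on both arrays (12.22 and 12.14), and the heart and muscle form COX7A1 was below the minimum on both (4.42 and 5.07). COX7B read 11.91 and 11.45, and the testis form COX7B2 6.64 and 6.49. For subunit 8 the ubiquitous COX8A read 14.47 and 14.05, and the testis form COX8C, the 1 member past 2-fold in the higher direction, 4.38 and 5.71. The wild-type value of COX8C was below the minimum, so its bound is at least 1.45-fold higher, and with such values set to the minimum it did not pass 2-fold. No member above the minimum on both arrays was therefore at least 2-fold higher.

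COX7A2L, a relative of the 7A subunits that joins complexes III and IV in supercomplexes, was lower at 12.79 and 11.92 (1.83-fold). Assembly factors of complex IV were lower in 6 of 8 cases (75%, against 54.2% of all genes). Past 2-fold in either direction were 0 of 8 (all genes: 9.80% lower and 7.46% higher). Their median was -0.24. That median was -0.12 with a trend on level removed and -0.38 with the array median as minimum, and the mean was -0.145. COX14, which acts early in assembly, was the most negative at 9.59 and 8.89 (-0.70). COX11, which delivers copper, differed by -0.55 and the copper chaperone COX17 by -0.42, whereas COX19, also of copper handling, was at least 1.69-fold higher (5.16 and 5.93, the first just below the minimum). The heme A synthesis genes COX10 and COX15 differed by -0.38 and -0.02.

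The ATP synthase had 11 of 17 members lower, 3 of them at least 2-fold, and 6 higher, with a median of -0.16. The mean was -0.26, and the median was -0.10 with the arrays centred. The shares were 17.6% at least 2-fold lower (9.80% of all genes) and 64.7% lower by any amount (54.2%). Beside ATP5IF1, the gamma subunit ATP5F1C, the central shaft that turns inside the catalytic head, read 15.36 and 14.22 (2.20-fold lower). ATP5MC2, a gene for the c subunit of the rotor ring, read 13.53 and 12.33 (2.30-fold lower). The other head subunits measured were not past 2-fold: the catalytic beta subunit ATP5F1B read 16.84 and 16.68, the alpha subunit ATP5F1A 11.94 and 11.24 (-0.70), and the delta subunit ATP5F1D 11.01 and 11.34 (0.33).

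Of the c ring, 3 genes encode the same mature c subunit behind different import sequences, and all 3 were lower. ATP5MC1 read 15.14 and 14.86 (-0.28), ATP5MC3 11.96 and 11.42 (-0.54), and ATP5MC2 had the largest difference. The peripheral stalk, which holds the head still, had 2 genes lower and 2 higher: ATP5PB differed by -0.42, ATP5PF by -0.15, the OSCP subunit ATP5PO by 0.05 and ATP5PD by 0.16. Of 5 small membrane subunits 3 were higher. ATP5ME, subunit e, read 10.42 and 11.31 (1.85-fold higher), ATP5MF, subunit f, 15.48 and 15.93 (0.45), and the proteolipid ATP5MJ 13.48 and 13.87 (0.39). ATP5MG, subunit g, read 13.08 and 13.01, and its relative ATP5MGL 6.32 and 6.13. The read-through transcript ATP5MF-PTCD1 was just above the minimum at 5.20 and 5.24.

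**Figure D3:**
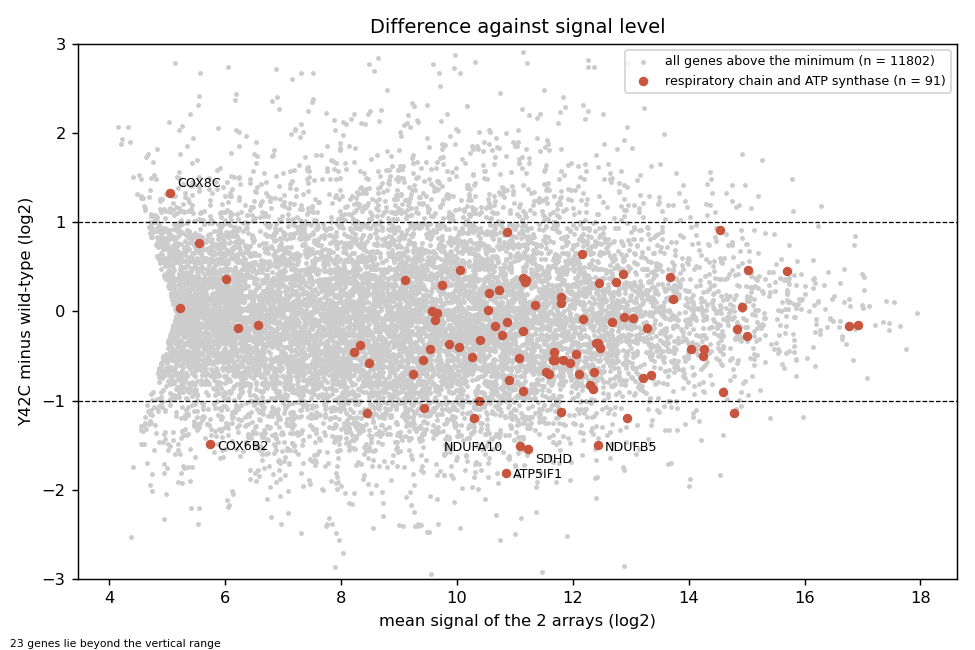
Difference (log2, Y42C minus wild-type, vertical axis) against the mean signal of both arrays (log2, horizontal axis) for all 11802 genes above the minimum (grey) and the 91 members among them (red); dashed lines mark 2-fold, and 23 grey genes lie beyond the vertical range. Members past 2-fold lie between dim (COX6B2 and COX8C) and bright signal (ATP5F1C), and the bright members ATP5F1B and ATP5PF lie at -0.16 and -0.15.

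Genes that act beside the members were described from lists of other assembly factors and carriers, of the TCA cycle, and of the regulators. Among 43 other assembly factors and electron carriers above the minimum, 34 were lower (79.1%, against 54.2% of all genes). At least 2-fold lower were 5 (11.6%, against 9.80% of all genes), and 0 were at least 2-fold higher (against 7.46% of all genes). Their median was -0.29, or -0.17 with a trend on level removed. SDHAF3, which helps mature the iron-sulfur subunit of complex II, read 9.68 and 8.57 (2.16-fold lower), and COA5, needed for complex IV, 9.50 and 8.40 (2.14-fold lower). The other 3, named after their values were seen, were the copper chaperone SCO1 (2.13-fold lower) and the ubiquinone synthesis genes COQ3 and COQ5 (2.11-fold and 2.07-fold lower). SURF1, a complex IV assembly factor, was the most positive at 8.06 and 8.65 (0.59), followed by the ATP synthase chaperone ATPAF1 (0.31). CYCS, the soluble cytochrome c, read 13.97 and 13.77.

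The enzymes that feed the chain with NADH and succinate had 11 of 15 genes lower (73.3%, against 54.2% of all genes), with a median of -0.33. At least 2-fold lower were 2 (13.3%, against 9.80% of all genes), and 0 were at least 2-fold higher (against 7.46% of all genes). PDHA1, a catalytic subunit of pyruvate dehydrogenase, read 13.16 and 10.64 (5.74-fold lower), a larger difference than that of any member. SUCLG1, the alpha subunit of succinyl-CoA ligase, read 10.97 and 9.35 (3.07-fold lower). OGDH (0.49) and SUCLA2 (0.41) were the most positive.

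Regulators of mitochondrial genes went in both directions: 9 of 15 were lower (60%, against 54.2% of all genes) and 6 higher. At least 2-fold lower was 1 (6.67%, against 9.80% of all genes), and 1 was at least 2-fold higher (7.46% of all genes). The median was -0.36 and the mean -0.11. TFAM, which packages mitochondrial DNA and starts its transcription, read 12.74 and 11.73 (2.01-fold lower), while POLRMT, the mitochondrial RNA polymerase, read 8.14 and 9.38 (2.36-fold higher). The methyltransferase TFB1M was lower (8.62 and 7.63) and the helicase TWNK higher (8.10 and 9.08), each just short of 2-fold. NRF1 read 8.33 and 7.55 (-0.78), PPARGC1A 6.20 and 5.43 (-0.77), the nuclear receptor ESRRA 9.10 and 8.60 (-0.50) and GABPA 10.07 and 9.60 (-0.47), so these 4 activators were all lower by less than 2-fold. The other PGC-1 family coactivators were higher, PPARGC1B at 5.24 and 5.93 (0.69) and PPRC1 at 9.14 and 9.56 (0.42). The wild-type value of PPARGC1B was just above the minimum of 5.17, and the Y42C value of PPARGC1A was near that of 5.14. The differences of PPARGC1A and PPARGC1B thus rest on dim signal.

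**Figure D4:**
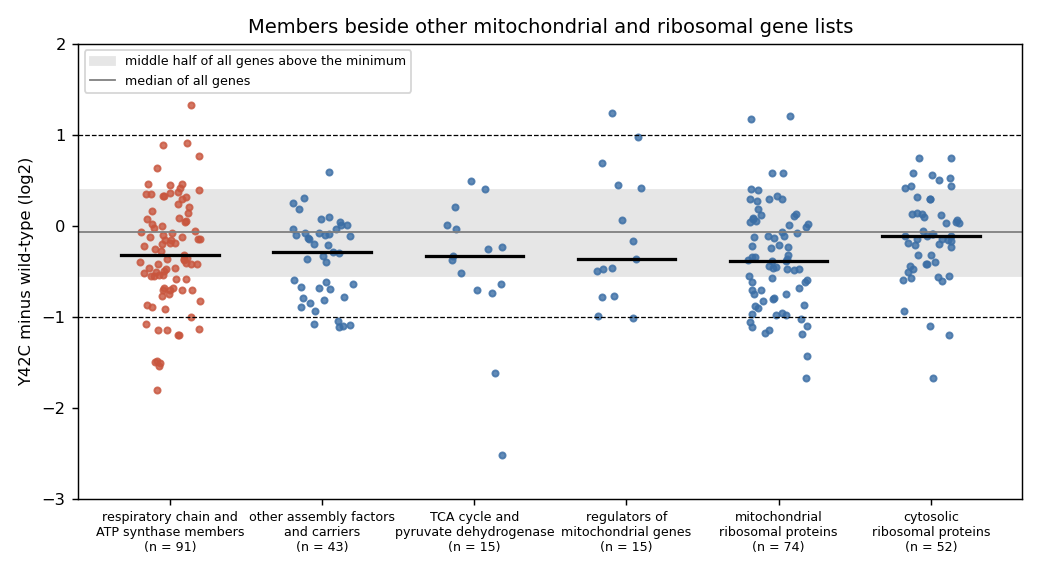
Difference (log2, Y42C minus wild-type, vertical axis) of each gene above the minimum in the members and in 5 other lists, with medians as black bars, the grey band between the quartiles of all genes, and dashed lines at 2-fold. The members' median (-0.32) is near those of the mitochondrial ribosomal proteins (-0.385) and the TCA list (-0.33), and that of the cytosolic ribosomal proteins (-0.11) is nearer to all genes (-0.07).

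A similar median, -0.385, was found in mitochondrial ribosomal protein genes, whose products translate the mitochondrial subunits. Of these, 53 of 74 were lower (71.6%, against 54.2% of all genes). At least 2-fold lower were 9 (12.2%, against 9.80% of all genes). At least 2-fold higher were 2 of the 74 (against 7.46% of all genes). Cytosolic ribosomal protein genes had 31 of 52 lower (59.6%, against 54.2% of all genes), with a median of -0.11. At least 2-fold lower were 3 (5.77%, against 9.80% of all genes), and 0 were at least 2-fold higher (against 7.46% of all genes). Both lists were added after the members' values were seen. With 1 array per line no difference between lists was tested, and nothing here shows the shift to be particular to the respiratory chain.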

How the data were processed

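Total RNA from 2 MKN1 lines was measured on 1 Affymetrix array each. The authors deposited 1 value per probe set and array, between 2.23 and 18.16, a range that fits log2 signal, which every fold here assumes since no source names the log base. Affymetrix Expression Console was used, per the submitters' processing notes. The sources used here give neither its version nor the background correction, summary or normalization. Arrays have no read depth, and their number limits the precision.

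Symbols came from the platform annotation, and values of a gene's probe sets were averaged. The minimum is the 95th percentile of 349 olfactory receptor genes. Where the dimmer value lay below its minimum, the fold is a bound against that minimum, but counts use deposited values. The differences were not tested, because there was 1 array per line. Members and lists were chosen with earlier results of these data known. The text names members past 2-fold, the ends of each complex, the SDH genes, paralogs, up to 2 genes at each end of the lists and 5 regulators; others were named after their values were seen. NRF1, ETS, YY1, SP1 and CCAAT letters were searched on both strands.

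The code was tested on simulated data for this comparison (11802 genes, SD 0.2): all 75 genes changed 4-fold and all 75 changed 8-fold passed 2-fold, as did 1 of 50 changed 1.5-fold and 0 of 11602 unchanged. The SD of 0.2 was a chosen setting, while the measured differences had an SD of 0.768 across all genes above the minimum. With so small an SD these outcomes were nearly fixed in advance. They check the counting only and give no rate of false calls on these arrays. Alternatives tried were median centring, quantile normalization, subtraction of a lowess trend on level (span 0.3), other minimums and thresholds, and 16 added to the linear signal. The brightest probe set, means, and members without assembly factors, COX7A2L and other transcripts were also tried. Low values set to the minimum were added after the data were seen. Computation used matplotlib 3.10.9, NumPy 2.4.6, pandas 2.3.3, Python 3.11.15 and statsmodels 0.14.6.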

Additional observations from a re-analysis of the deposited data

How the results depend on the processing

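No paired analysis was possible because each line has 1 array, and no array could be left out. Under all 8 alternatives of scaling, minimum and probe set, the members' median difference stayed between -0.365 and -0.25 (all genes: -0.09 to 0.00), and the count at least 2-fold lower between 10 and 12. The members' mean was -0.30. Without the assembly factors, COX7A2L, the read-through and the non-coding transcript, the median was -0.26. That set still held the inhibitor ATP5IF1. At 1.5-fold 24 members were lower and 5 higher, and at 3-fold 1 and 0. The count at least 2-fold higher, 1 gene, was 0 with the array median as minimum, with 16 added and with low values set to the minimum. With the mean in place of the median, complex IV gave -0.20, the TCA list -0.46 and the regulators -0.11. With a trend on level removed, complex IV assembly factors gave -0.12 and the list of other assembly factors and carriers -0.17. With no minimum complex IV gave -0.29 (4 members more were counted in all), and with the array median as minimum its assembly factors gave -0.38. The cause of these moves was not tested. No median changed sign. Of the 13 members past 2-fold, 10 kept that call under every one of the 8 alternatives. Not all of these could change a call by changing a difference. No minimum and the array median as minimum only decide which genes are counted. The brightest probe set changes nothing for members, which have 1 probe set each. The exceptions were NDUFAF2, NDUFAF7 and COX8C (difference of 0.89 with 16 added and 0.54 with low values set to the minimum).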
